A study of Homo sapiens with 2 samples.

Results

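The Rel/NF-kB transcription factor subunits and the proteins that restrain them were followed here as a set of 10 genes. They were read from the deposited table, which lists 60527 genes, by gene symbol: the subunit genes NFKB1, NFKB2, RELA, RELB and REL, the I-kappa-B genes NFKBIA, NFKBIB, NFKBIE and NFKBIZ, and TNFAIP3. Each symbol had 1 entry. RNA came from 1 culture of the human skin melanoma line SK-MEL-2 (so labelled) exposed for 48 h to 1.75 µM JNJ-7706621, and from 1 culture of that line exposed for 48 h to DMSO, the solvent. JNJ-7706621 blocks kinases of the cell cycle, among them CDKs and Aurora kinases. The series title names the RNA-binding protein AUF1 and mRNA degradation, and these libraries measure neither AUF1 binding nor mRNA decay.

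NF-kB factors are dimers of Rel-domain proteins that wait in the cytoplasm until a signal frees them. In the canonical arm, receptors such as those for TNF and interleukin-1 activate the IKK kinase complex, I-kappa-B proteins are phosphorylated and degraded, and dimers of RELA or REL with p50, the product of NFKB1, enter the nucleus. In the non-canonical arm, receptors such as the lymphotoxin beta receptor stabilise the kinase NIK, the NFKB2 precursor p100 is processed to p52, and p52 with RELB enters the nucleus. NFKBIA, NFKBIE, NFKB1, NFKB2, RELB and TNFAIP3 are themselves known target genes of NF-kB. mRNA levels say nothing about degradation of the inhibitors, processing of the precursors or entry into the nucleus.

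The library totals recovered from the values in FPKM (fragments scaled to exon length and library total) were 22817719 reads for JNJ-7706621 and 23377161 for DMSO. With 1 library per group no difference has a replicate check. Intervals in parentheses are 95% intervals of counting error and say nothing about the spread between cultures. Of 7 markers of the melanocyte lineage 2 reached a mean of 1 FPKM, namely MITF and PMEL. TYR, the enzyme that starts melanin synthesis, was listed at 0 in both libraries, and SOX10, a transcription factor of that lineage, had 0 reads with JNJ-7706621 and 1 read with DMSO. All 5 epithelial markers reached that mean, with summed levels of 1979 FPKM in the JNJ-7706621 library and 1962 FPKM in the DMSO library. The cell identity given by the label is therefore not borne out by its defining markers in either library. None of the 5 leukocyte markers reached a mean of 1 FPKM, and their summed levels were 0.081 FPKM with JNJ-7706621 and 0.159 FPKM with DMSO.

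The kappa-B element, the short DNA sequence that NF-kB dimers bind, was looked up in the promoters because several of the members were higher together. RefSeq promoter windows on GRCh38.p14 run from 250 bases before to 50 bases after each annotated start, and 8 members had 14 such windows. RELB and NFKBIE had no entry. The kappa-B consensus, searched on both strands, was found in at least 1 window of 7 of these 8 members, against 7.09% of the 27305 genes with a window. In that consensus, GGGRNWYYCC, R is A or G, N any base, W is A or T and Y is C or T. A gene with more windows has more chances of a match. Counted by window, 5.91% of all 35116 windows held 1 or more. The exact decamer of the immunoglobulin kappa light chain enhancer, which is also a consensus match, was found in NFKB2 and TNFAIP3 and in 0.227% of all genes. A match is a stretch of letters and not a measured site of binding.

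Stretches that hold matches are shown 5′ to 3′ on the strand of the gene, with the kappa-B letters in capitals. Those of TNFAIP3 and NFKB2 come first since these genes had the largest ratios. In TNFAIP3 the matches begin 67 and 55 bases before the start, and the first is the decamer read on the opposite strand. In NFKB2 the decamer, on the strand of the gene, begins 21 bases before the most downstream annotated start, and another match lies 176 bases before that start. The window at the middle start holds a pair of overlapping matches and a further match 78 bases before the start.
TNFAIP3, chr6:137867188-137867217, plus strand: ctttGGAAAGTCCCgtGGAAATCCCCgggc
NFKB2 at the downstream start, chr10:102395674-102395703, plus strand: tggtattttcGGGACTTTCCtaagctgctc
NFKB2 further upstream of the downstream start, chr10:102395519-102395548, plus strand: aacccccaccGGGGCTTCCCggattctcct
NFKB2 at the middle start, chr10:102394462-102394490, plus strand: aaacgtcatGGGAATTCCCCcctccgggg
NFKB2 nearer the middle start, chr10:102394490-102394519, plus strand: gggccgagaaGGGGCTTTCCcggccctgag
NFKB1, chr4:102501300-102501329, plus strand: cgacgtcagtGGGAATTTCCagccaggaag
REL, chr2:60881518-60881546, plus strand: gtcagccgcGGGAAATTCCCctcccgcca
NFKBIB, chr19:38899932-38899960, plus strand: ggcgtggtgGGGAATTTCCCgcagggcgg
The stretches of TNFAIP3, NFKB1, REL, NFKBIB and NFKB2 overlap exons of the same gene in GENCODE release 29, except that of NFKB2 with the match 176 bases before the start, which overlaps no exon, and that of NFKB1 also overlaps an exon of AF213884.3.

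For NFKBIA and for the upstream start of NFKBIZ the 250 bases before the start overlap no annotated gene, and they are shown whole. The 250 bases before the upstream start of RELA, the member with windows but no match, are also shown. They lie within the gene AP001362.2 but in none of its exons. Matches also occur in REL and NFKBIB, whose FPKM ratios of JNJ-7706621 over DMSO were 0.569 and 1.15. Whether a match goes with a higher level was not tested. The match of NFKBIA begins 81 bases before the start and that of NFKBIZ 223 bases before it.
NFKBIA, chr14:35404750-35404999, minus strand: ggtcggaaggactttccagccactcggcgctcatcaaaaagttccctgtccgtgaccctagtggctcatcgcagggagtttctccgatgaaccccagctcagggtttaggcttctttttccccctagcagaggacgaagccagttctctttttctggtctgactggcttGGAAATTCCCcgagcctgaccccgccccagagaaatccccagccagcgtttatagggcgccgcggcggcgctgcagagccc
NFKBIZ, chr3:101827740-101827989, plus strand: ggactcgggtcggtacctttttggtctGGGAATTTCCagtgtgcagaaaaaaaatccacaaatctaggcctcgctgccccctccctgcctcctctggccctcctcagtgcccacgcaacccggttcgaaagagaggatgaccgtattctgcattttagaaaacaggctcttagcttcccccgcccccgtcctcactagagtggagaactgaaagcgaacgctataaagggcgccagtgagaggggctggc
RELA, chr11:65663858-65664107, minus strand: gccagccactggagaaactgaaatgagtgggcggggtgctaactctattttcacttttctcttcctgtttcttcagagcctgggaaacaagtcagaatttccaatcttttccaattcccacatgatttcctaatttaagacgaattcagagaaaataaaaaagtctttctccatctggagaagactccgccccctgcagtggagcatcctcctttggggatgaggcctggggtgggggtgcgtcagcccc
Both RELA windows hold 0 matches to the consensus, while NFKBIZ has another match before its downstream start.

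The subunit genes differed among themselves. Gene positions are those of GENCODE release 29 on GRCh38. NFKB2, which encodes p100 and p52 and lies at positions 102394110 to 102402529 on chromosome 10, stood at 31.9 FPKM in the JNJ-7706621 library, on 3435 reads, and at 10.9 FPKM in the DMSO library, on 1200 reads. Its FPKM ratio of 2.93 (2.75 to 3.13) was the highest among the subunits. In bulk RNA, more cells that hold an mRNA and more of it per cell cannot be told apart. NFKB1, at 102501329 to 102617302 on chromosome 4, encodes p105 and p50 and stood at 10.9 FPKM with JNJ-7706621 and 6.135 FPKM with DMSO, a ratio of 1.78 (1.64 to 1.93). Both precursor genes were thus higher in the JNJ-7706621 library, and the intervals of their ratios do not overlap.

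RELA, the activating subunit p65 at 65653596 to 65663094 on chromosome 11, was nearly level between the libraries. It stood at 12.5 FPKM with JNJ-7706621, on 1563 reads, and 12.2 FPKM with DMSO, on 1555 reads, and the ratio of 1.03 (0.959 to 1.11) includes 1. RELB, the partner of p52 at 45001430 to 45038198 on chromosome 19, stood at 5.78 FPKM with JNJ-7706621, on 398 reads, and 3.02 FPKM with DMSO, on 213 reads, a ratio of 1.91 (1.62 to 2.27).

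REL, the lymphoid activating subunit c-Rel at 60881521 to 60931610 on chromosome 2, was lower and was barely present. It stood at 0.283 FPKM with JNJ-7706621, on 85 reads, and 0.497 FPKM with DMSO, on 153 reads, a ratio of 0.569 (0.431 to 0.747). Exons of AC010733.2, a gene on the same strand listed at 0 in both libraries, overlap 43.3% of the exon length of REL. How the counting treated reads in that overlap is not given in the sources used here, so the level of REL is uncertain. For the other 9 members the overlap with exons of other genes was at most 1.88%.

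**Figure D1:**
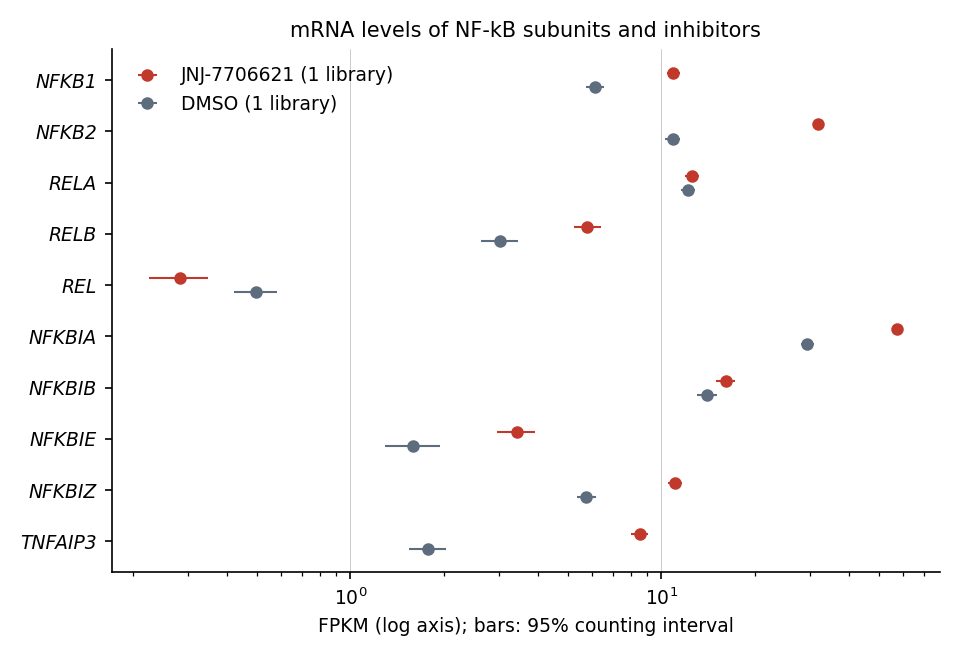
mRNA level of each of the 10 genes in FPKM on a log axis, in the JNJ-7706621 library (red) and the DMSO library (grey), 1 library each. Bars are 95% counting intervals, and the red point lies right of the grey one for all genes but REL, with overlapping intervals for RELA and NFKBIB.

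The inhibitor genes were higher too, except that NFKBIB differed little. NFKBIA, which encodes the fast-resynthesised inhibitor I-kappa-B alpha at 35401511 to 35404749 on chromosome 14, was the most abundant member in both libraries. It stood at 57.4 FPKM with JNJ-7706621, on 3108 reads, and 29.5 FPKM with DMSO, on 1634 reads, a ratio of 1.95 (1.83 to 2.07). NFKBIE, the inhibitor I-kappa-B epsilon at 44258166 to 44265788 on chromosome 6, stood at 3.43 FPKM with JNJ-7706621 and 1.59 FPKM with DMSO, a ratio of 2.16 (1.68 to 2.78) that rested on 202 reads with JNJ-7706621 and 96 with DMSO.

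NFKBIB, the inhibitor I-kappa-B beta at 38899700 to 38908893 on chromosome 19, is known as a less inducible inhibitor. It stood at 16.1 FPKM with JNJ-7706621 and 14.0 FPKM with DMSO, a ratio of 1.15 (1.04 to 1.27). Relative to NFKBIB within the same library, NFKBIA was 3.56 times as abundant with JNJ-7706621 and 2.10 times as abundant with DMSO, a ratio of these ratios of 1.70 (1.51 to 1.90). For NFKBIE over NFKBIB the ratio of ratios was 1.88 (1.44 to 2.44). The inhibitor mRNAs therefore differed unequally between the libraries, beyond counting error.

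NFKBIZ, at 101827991 to 101861022 on chromosome 3, encodes a nuclear I-kappa-B protein that acts as a cofactor at a subset of NF-kB target genes. It stood at 11.1 FPKM with JNJ-7706621, on 1491 reads, and 5.73 FPKM with DMSO, on 791 reads, a ratio of 1.93 (1.77 to 2.11). TNFAIP3, at 137867188 to 137883312 on chromosome 6, encodes A20, an enzyme that edits ubiquitin chains and damps signalling upstream of IKK. It stood at 8.53 FPKM with JNJ-7706621, on 978 reads, and 1.78 FPKM with DMSO, on 209 reads. Its ratio of 4.79 (4.12 to 5.59) was the highest of the 10 genes, and its interval overlaps no other member's.

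**Figure D2:**
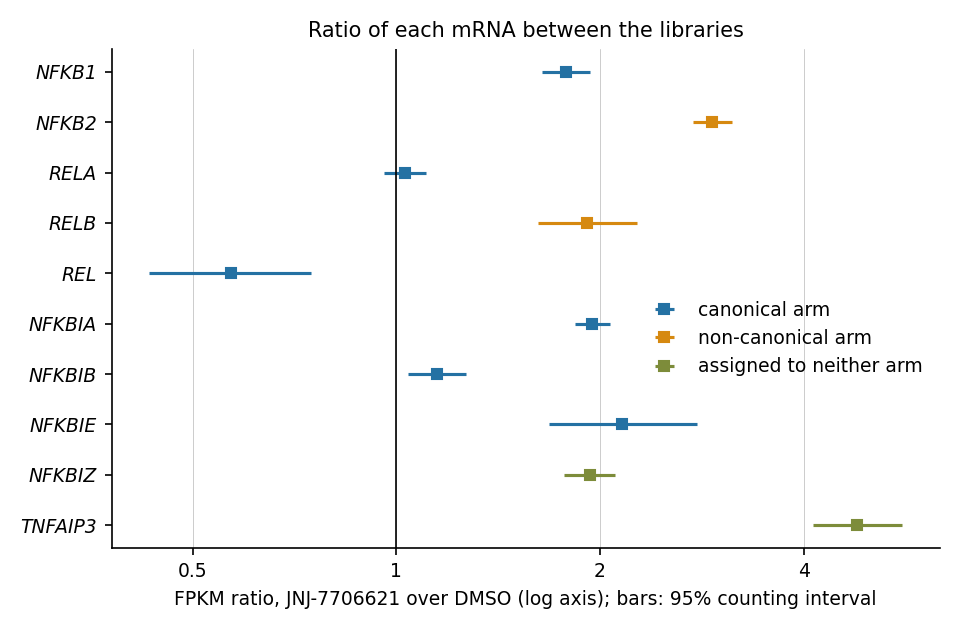
FPKM ratio of JNJ-7706621 over DMSO for each gene on a log axis, with 95% counting intervals as bars and colours for the canonical arm, the non-canonical arm and the genes assigned to neither. The ratio was 4.79 for TNFAIP3 and 2.93 for NFKB2, and REL, at 0.569, is the 1 gene whose interval lies wholly below 1.

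Ordered by FPKM in the JNJ-7706621 library, the genes ran NFKBIA, NFKB2, NFKBIB, RELA, NFKBIZ, NFKB1, TNFAIP3, RELB, NFKBIE and REL. Only the neighbours NFKBIZ and NFKB1 had overlapping counting intervals there. In the DMSO library the order was NFKBIA, NFKBIB, RELA, NFKB2, NFKB1, NFKBIZ, RELB, TNFAIP3, NFKBIE and REL, and the neighbours NFKB1 and NFKBIZ, as well as TNFAIP3 and NFKBIE, had overlapping intervals. The orders differ in that NFKB2 stood above NFKBIB and RELA with JNJ-7706621 and below both with DMSO, and TNFAIP3 stood above RELB with JNJ-7706621 and below it with DMSO. NFKBIZ and NFKB1 also changed places, within overlapping intervals in both libraries.

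The makeup of the subunit mRNAs followed from these levels. The 5 subunit genes summed to 61.5 FPKM with JNJ-7706621 and 32.7 FPKM with DMSO. NFKB2 made up 51.9% (50.8 to 53.1) of that sum with JNJ-7706621 and 33.3% (31.8 to 34.8) with DMSO, while RELA made up 20.4% (19.5 to 21.3) with JNJ-7706621 and 37.2% (35.7 to 38.7) with DMSO. The shares of NFKB1 were 17.8% with JNJ-7706621 and 18.7% with DMSO, and those of RELB were 9.41% with JNJ-7706621 and 9.23% with DMSO. REL made up 0.46% with JNJ-7706621 and 1.52% with DMSO.

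The inhibitors NFKBIA, NFKBIB and NFKBIE summed to 76.9 FPKM with JNJ-7706621 and 45.1 FPKM with DMSO, of which NFKBIA made up 74.6% (73.3 to 75.9) with JNJ-7706621 and 65.4% (63.5 to 67.2) with DMSO. Divided by the sum of RELA, RELB and REL, the inhibitor sum was 4.13 with JNJ-7706621 and 2.87 with DMSO, a ratio of ratios of 1.44 (1.33 to 1.56). The mRNAs of these inhibitors were thus higher in proportion to the sum of RELA, RELB and REL in the JNJ-7706621 library. That sum leaves out NFKB1 and NFKB2. With them the subunit sums were 61.5 FPKM with JNJ-7706621 and 32.7 FPKM with DMSO. In proportion to those sums the inhibitor mRNAs were not higher with JNJ-7706621, so the direction depends on the subunits counted. These proportions concern mRNA and not the proteins.

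**Figure D3:**
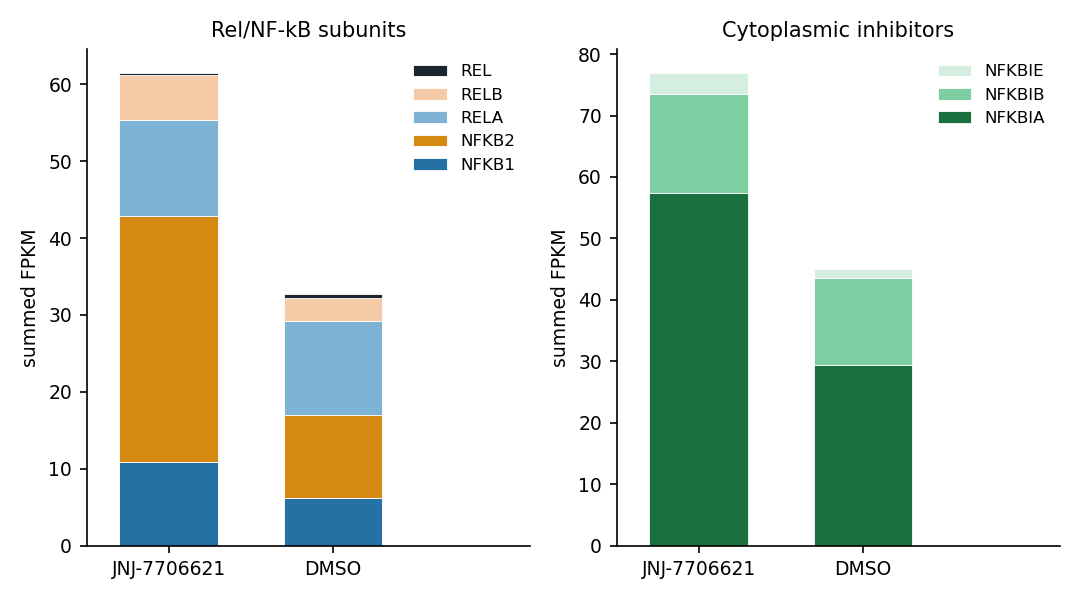
Summed FPKM of the 5 subunit genes (left) and of the 3 cytoplasmic inhibitor genes (right) in the JNJ-7706621 and DMSO libraries, 1 library each, with a segment per gene. The subunit sums were 61.5 FPKM with JNJ-7706621 and 32.7 FPKM with DMSO, and among the subunits the NFKB2 segment differs most.

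The canonical arm was set against the non-canonical arm by pairing each non-canonical subunit gene with its canonical counterpart. NFKB2 over NFKB1 was 2.92 in the JNJ-7706621 library and 1.77 in the DMSO library, a ratio of ratios of 1.65 (1.48 to 1.83). RELB over RELA was 0.461 with JNJ-7706621 and 0.248 with DMSO, a ratio of ratios of 1.86 (1.55 to 2.23). The summed NFKB2 and RELB mRNA was 1.61 times that of NFKB1 and RELA with JNJ-7706621 and 0.759 times with DMSO, a ratio of ratios of 2.12 (1.95 to 2.30).

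The arms did not separate cleanly gene by gene. The canonical members NFKB1, NFKBIA and NFKBIE had ratios from 1.78 to 2.16, on both sides of the 1.91 of RELB, and their intervals overlap that of RELB. The interval of NFKB2 lies above those of RELB and of every canonical member except NFKBIE. On the log2(FPKM + 1) scale, JNJ-7706621 minus DMSO, the median difference was 0.74 over the 5 canonical members with a mean of at least 1 FPKM, and 1.11 over the 2 non-canonical ones. With REL, whose mean is below 1 FPKM, the canonical median was 0.46.

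Against all genes the members were set by a rule of size, at least 2-fold on the log2(FPKM + 1) scale with a mean of at least 1 FPKM. At low FPKM this scale gives a smaller difference than the plain ratio. TNFAIP3, with a log2 difference of 1.78, and NFKB2, with 1.47, were called higher, 2 of the 9 members past the filter, while 2.39% of all 13241 genes past it were called higher. None of the 9 was called lower, against 1.36% of all genes. At 1.5-fold, 7 of the 9 were called higher and 0 lower, against 8.53% and 6.77% of all genes. REL was the member under the filter, and each of the other 9 was above 1 FPKM in both libraries.

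The median log2 difference was 0.77 over the 9 members, which lay between 0.04 and 1.78, and -0.0032 over all genes. TNFAIP3 ranked at 52 and NFKB2 at 105 from the highest of the 13241 differences, NFKBIA at 381 with a difference of 0.94 and NFKBIZ at 514 with 0.84. NFKBIE, RELB and NFKB1 followed with differences of 0.77, 0.75 and 0.74 at ranks 647, 681 and 706. NFKBIB at 0.19 and RELA at 0.04 lay within the bulk of all genes, at ranks 4075 and 5975.

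**Figure D4:**
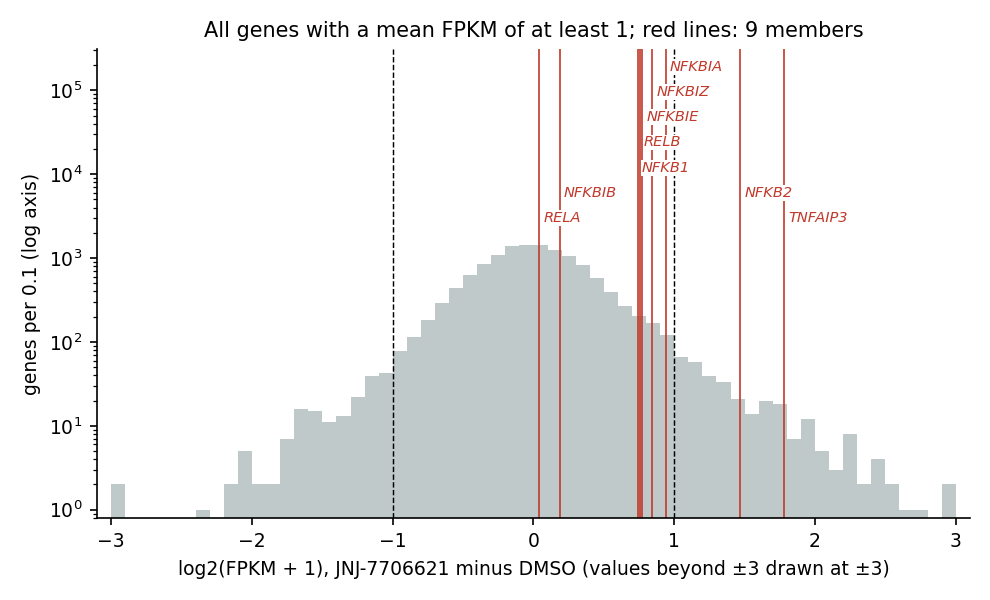
Histogram of the log2(FPKM + 1) difference, JNJ-7706621 minus DMSO, of 13241 genes on a log count axis, with the 9 members past the filter as red lines and the 2-fold rule as dashed lines. TNFAIP3 and NFKB2 lie beyond the dashed line, 5 members lie between 0.74 and 0.94, and RELA and NFKBIB lie in the centre.

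AU-rich motifs in the 3′ UTR were counted because the series title concerns AUF1, which binds AU-rich elements. The heptamer TATTTAT (DNA letters) occurred in the longest annotated 3′ UTR of 3 of the 10 members, against 30.3% of 19526 protein-coding genes. REL held 4 heptamers in 9075 bases of 3′ UTR, NFKBIA held 2 in 502 bases and TNFAIP3 held 1 in 3156 bases. These 3 genes had FPKM ratios of 0.569, 1.95 and 4.79, and the level of REL is uncertain. Whether the motif bears on the differences was not tested. NFKB2, with the second highest ratio, held 0 heptamers in 153 bases. A site of each gene is shown with the heptamer in capitals.
NFKBIA, chr14:35401700-35401726, minus strand: ccacattttaTATTTATtgtgcttcga
TNFAIP3, chr6:137882299-137882325, plus strand: taattcacttTATTTATtttattacaa
REL, chr2:60922612-60922638, plus strand: tataatactaTATTTATactgtatata

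The rest of the pathway was read from 8 lists, chosen with earlier results of these data known. Of all genes past the filter, 2.39% were called 2-fold higher and 1.36% lower. At 1.5-fold these shares were 8.53% and 6.77%. The core kinases were not higher: of 7 genes of the IKK and TAK1 complexes 0 were called 2-fold higher or lower, and their median log2 difference was -0.27. MAP3K7, which encodes TAK1, stood at 3.40 FPKM with JNJ-7706621 and 5.20 FPKM with DMSO, a ratio of 0.655 (0.588 to 0.729), and its adaptor TAB2 stood at 6.26 FPKM with JNJ-7706621 and 8.16 FPKM with DMSO. The IKK genes were looked at after their values were seen. CHUK and IKBKB, its catalytic subunits, had ratios of 1.05 (0.971 to 1.15) and 0.867 (0.799 to 0.941), and the scaffold IKBKG, whose value is uncertain since it shares sequence with a pseudogene copy, had 1.10 (0.997 to 1.20).

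Of 17 adaptors and ubiquitin ligases of the canonical arm 16 passed the filter. Of these 1 was called 2-fold higher and 0 lower, with a median log2 difference of -0.12. IRAK2, a kinase-like adaptor of interleukin-1 and Toll-like receptors, stood at 17.9 FPKM with JNJ-7706621 and 4.04 FPKM with DMSO, a ratio of 4.43 (3.93 to 5.02). At 1.5-fold, IRAK2 and the ubiquitin ligase gene BIRC3 were higher, and the ligase gene BIRC2 and the adaptor gene MYD88 lower. The ratios were 1.93 (1.78 to 2.10) for BIRC3, 0.629 (0.570 to 0.694) for BIRC2 and 0.602 (0.538 to 0.674) for MYD88. BIRC2, BIRC3 and MYD88 were chosen after their values were seen.

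Of 11 receptors and ligands of the canonical arm 3 passed the filter. IL1A, an interleukin-1 ligand that passed only through the JNJ-7706621 library, was the 1 called higher, at 5.61 FPKM with JNJ-7706621 and 0.403 FPKM with DMSO. The receptor gene TNFRSF1A had a ratio of 0.782 (0.751 to 0.816), and IL1R1 one of 0.998 (0.840 to 1.19). Under the filter, IL1B had 91 reads with JNJ-7706621 and 4 with DMSO, TNF had 25 with JNJ-7706621 and 4 with DMSO, and the receptor gene TNFRSF1B had 82 with JNJ-7706621 and 8 with DMSO. TLR5, a Toll-like receptor gene, had 23 with JNJ-7706621 and 43 with DMSO, a ratio of 0.548 (0.315 to 0.930). All but IL1A were chosen after their values were seen.

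Of 14 genes of the non-canonical list 6 passed the filter, 1 of them called 2-fold higher and 0 lower, with a median log2 difference of 0.33. LTB, which encodes a lymphotoxin chain, had 153 reads with JNJ-7706621 and 18 with DMSO, a ratio of 8.71 (5.33 to 15.1), and passed only through the JNJ-7706621 library. LTA, another lymphotoxin gene of the list, was under the filter, with 0 reads with JNJ-7706621 and 1 with DMSO. At 1.5-fold, LTB, the receptor gene TNFRSF12A and TRAF3, which encodes an adaptor that keeps NIK low, were higher. TNFRSF12A stood at 42.4 FPKM with JNJ-7706621 and 24.2 FPKM with DMSO, and TRAF3 at 7.70 FPKM with JNJ-7706621 and 4.77 FPKM with DMSO. MAP3K14, which encodes NIK, had a ratio of 1.07 (0.925 to 1.25) and the receptor gene LTBR one of 1.02 (0.973 to 1.07). All but LTB were chosen after their values were seen.

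Of 5 IKK-related kinases and adaptors 4 passed the filter, 1 of them called higher and 0 lower. IKBKE, an IKK-related kinase, stood at 11.1 FPKM with JNJ-7706621 and 2.82 FPKM with DMSO, a ratio of 3.95 (3.43 to 4.55), while its relative TBK1 had 1.05 (0.944 to 1.16), a value seen before it was chosen. BCL3 and NFKBID, further I-kappa-B family members with a nuclear role, had ratios of 0.952 (0.858 to 1.06) and 1.53 (1.12 to 2.10), and neither was called. NFKBID passed the filter only through the JNJ-7706621 library.

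Of 15 other negative regulators 14 passed the filter, 1 of them called 2-fold higher and 0 lower, with a median log2 difference of 0.07. TNIP1, which encodes a partner protein of A20, stood at 49.1 FPKM with JNJ-7706621 and 20.3 FPKM with DMSO, a ratio of 2.42 (2.31 to 2.53). At 1.5-fold, TNIP1, its relative TNIP3 and ZC3H12A, an RNase that degrades inflammatory mRNAs, were higher, with ratios of 2.46 (1.88 to 3.23) for TNIP3 and 1.76 (1.65 to 1.87) for ZC3H12A. TNIP3 passed the filter only through the JNJ-7706621 library. The deubiquitinase gene CYLD had a ratio of 1.12 (0.989 to 1.26). TNIP3, ZC3H12A and CYLD were chosen after their values were seen.

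Beside these, 21 NF-kB target genes outside the members were listed, of which 17 passed the filter. Of these 9 were called 2-fold higher and 1 lower, against 2.39% and 1.36% of all genes, with a median log2 difference of 1.06. This list too was chosen with earlier results of these data known. The 9 were the chemokine genes CXCL8, CXCL1, CXCL2, CCL2 and CCL20, the growth factor gene CSF3, the adhesion gene ICAM1, SOD2, the mitochondrial superoxide dismutase, and TNFAIP2. SOD2 has more than 1 entry in the deposited values, and the entry with the highest mean FPKM was used. The overlap of SOD2 with other genes was not examined. CSF3, at 7.19 FPKM with JNJ-7706621 and 0.732 FPKM with DMSO, passed the filter only through the JNJ-7706621 library. ICAM1 stood at 8.69 FPKM with JNJ-7706621 and 1.67 FPKM with DMSO, a ratio of 5.19 (4.31 to 6.29). Genes on the opposite strand cover 23.6% of its exons, so its level is uncertain. GADD45B, a stress response gene, was the 1 called lower, at 1.13 FPKM with JNJ-7706621 and 3.38 FPKM with DMSO. Without the target genes, the 7 other lists held 52 genes past the filter, of which 5 were called higher and 0 lower, with a median log2 difference of 0.03.

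**Figure D5:**
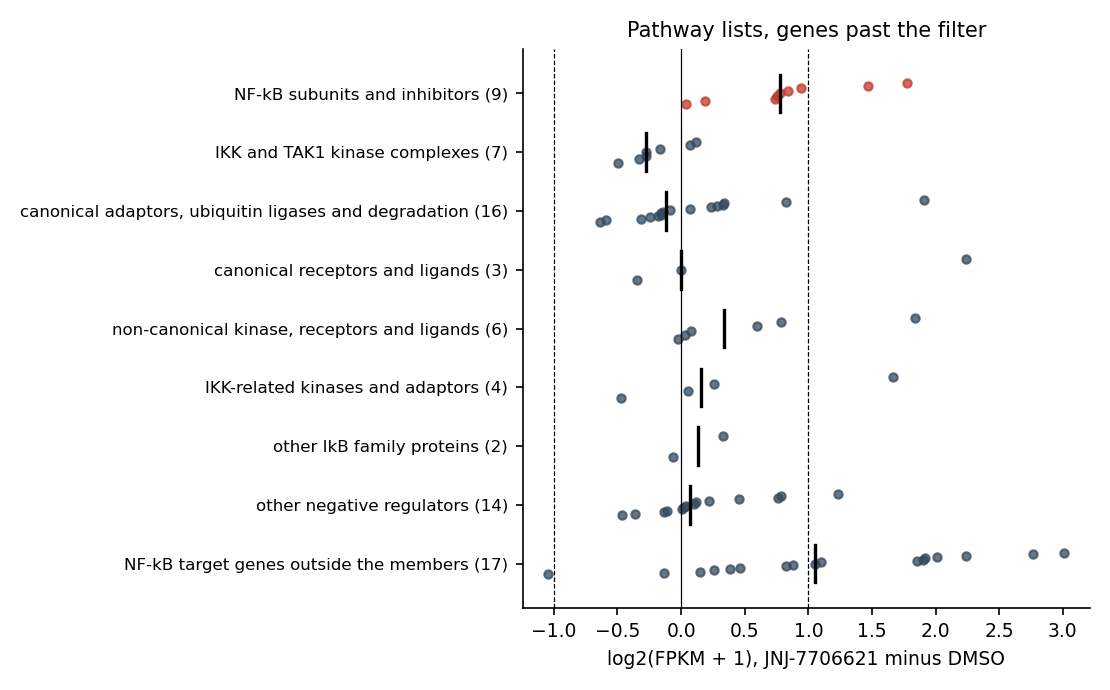
log2(FPKM + 1) difference, JNJ-7706621 minus DMSO, of the genes past the filter in each pathway list (points), with the list's median as a black bar and the 2-fold rule as dashed lines. The medians were 0.77 for the members, -0.27 for the IKK and TAK1 complexes and 1.06 for the target genes.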

How the data were processed

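Total RNA of 2 cultures was sequenced, 1 library per group, and groups were taken from the sample labels. The authors deposited FPKM values per gene, per the file headers. Build hg38 and edgeR, with no role, appear in the submitters' processing notes. No source used here gives the aligner, the counter, the annotation or the use of strand. The table holds 2 further value columns, whose names are those of the columns used but for a last digit of 2. They may be second libraries of the same groups, but they match no sample label given here and were not used, so the lack of replicates is a limit of the samples analysed and not of the table.

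Library totals were recovered as the numbers that make FPKM times GENCODE release 29 exon length a whole number of reads, for 17325 genes at the annotated length. For other genes the nearest length from 0.25 to 4 times the annotated one was taken that gave whole reads in both libraries, within 0.0001 reads. Reads came out for 27805 genes. These gave exact Clopper-Pearson intervals (95%) of FPKM ratios, conditional on the sum of reads, exact Poisson intervals of levels, and delta-method intervals of shares and ratios of ratios. Without molecular identifiers, reads are not separate molecules, and intervals cover counting error only. No test was run, since each group has 1 library.

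Differences were log2(FPKM + 1), JNJ-7706621 minus DMSO, for genes that averaged 1 FPKM or more. Calls were 2-fold and 1.5-fold on that scale. The alternatives were pseudocounts of 0.1 and 0.5, no filter, rescaling to a sum of 1000000, and centring on all genes or within 10 classes of exon length. The text names all members and, of each list, the genes called 2-fold or otherwise the 2 with the largest difference. It also names further list genes, marked as chosen after their values were seen. With 2 libraries no gene was named for likeness to a member. Members and lists were chosen with earlier results of these data known. The calculations were tested on simulated data. Python 3.11.15, numpy 2.4.6, pandas 2.3.3 and scipy 1.17.1 were used.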

Additional observations from a re-analysis of the deposited data

How the results depend on the processing

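All 59 alternative values of single members kept the sign of their difference. A change of pseudocount or filter cannot alter that sign, so only rescaling and centring could have done so. Members called 2-fold higher numbered 2 under every alternative except a pseudocount of 0.1, which gave 3 with NFKBIE at a log2 difference of 1.06, and 7 members were called 1.5-fold higher under each. The median over the members, 0.77 in the main setting, ranged from 0.76 to 0.81 with each member left out in turn. It was 0.94 with a pseudocount of 0.1, 0.89 with a pseudocount of 0.5 and 0.88 on rescaling. Without the filter it was 0.76, and it was 0.78 centred on all genes and 0.76 centred within classes of exon length. Without the filter, which lets REL in, the canonical median was 0.46 against 0.74. Among all genes, a pseudocount of 0.1 gave 608 called 2-fold higher and 409 lower, against 316 and 180, and 1470 called 1.5-fold lower against 897. A pseudocount of 0.5 gave 274 called 2-fold lower. Rescaling each library to sum to 1000000 gave 714 higher and 478 lower at 2-fold, and 1834 higher and 1699 lower at 1.5-fold. The pseudocount of 1 and the filter at a mean of 1 were kept on the rescaled values, so both act at a different level there. How much of the shift this accounts for was not tested. Of the pathway lists, canonical receptors and ligands had 3 called 2-fold higher on rescaling and 2 with no filter, against 1, the non-canonical list had 2 on rescaling against 1, and the other negative regulators had 2 with a pseudocount of 0.1 against 1. No paired analysis was possible because each group has 1 library among the samples analysed, the 2 unmatched value columns being left unused. With 1 library per group none could be left out. REL, on 85 reads with JNJ-7706621 and 153 with DMSO, is the member that depth limits most.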

Other observations

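Genes outside the members were sorted by the kappa-B consensus in their RefSeq promoter windows, a split made after the data were seen. Of 764 genes past the filter with a match 29 were called 2-fold higher with JNJ-7706621, or 3.80%, and 0 were 2-fold lower. Of 7791 genes with windows but no match 115 were 2-fold higher, or 1.48%, and 62 were 2-fold lower, or 0.796%. The medians were close, at 0.01 with a match and -0.0027 without. No test was run. Only the members were left out, so genes of the pathway lists, LTB and TNIP1 among them, count among the genes with a match. These shares are therefore not independent of the list values given above. How many of the 29 passed the filter only through the JNJ-7706621 library was not counted. The kappa light chain enhancer decamer was held by 23 of these genes. Of these LTB, TNIP1 and B2M, which encodes beta-2-microglobulin, were 2-fold higher and 0 were 2-fold lower. Of 8532 genes with windows but no decamer 141 were 2-fold higher, or 1.65%, and 62 were 2-fold lower, or 0.727%. With a share that low, 0 lower among 23 genes is uninformative. LTB passed the filter only through the JNJ-7706621 library. B2M stood at 105 FPKM with JNJ-7706621 and 51.7 FPKM with DMSO, and MARF1 had the most negative difference of the 23, at 3.86 FPKM with JNJ-7706621 and 7.10 FPKM with DMSO.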
